A study of Homo sapiens with 12 samples.

Results

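Cytosolic ribosomal protein mRNAs were followed through all 12 RNA-seq libraries of LMSU, a gastric cancer cell line that carries the mutant p53-R175H. Members were rows whose symbol consists of RPL or RPS with a number and at most a final A or X, or is RPLP0, RPLP1, RPLP2 or RPSA. The rule found 77 of the 25435 rows of the count table. No measured value entered it, but members were chosen with earlier results of these data known. Within a group the members differed most in the KO control, whose first library had a median log2 level 0.62 above the second. In the other arm, 14 of 75 tested members (18.7%) rose with p53 shRNA 1 and 12 (16%) with p53 shRNA 2 against vector. Of all genes tested, 5.78% and 9.21% rose. Against scramble 0 and 1 members were called, beside 9.41% and 7.74% of all genes in either direction. Scramble against vector had a member median of 0.27. With the 8 hairpin, scramble and vector libraries fitted alone, a choice made after seeing the data, 66 and 70 members were called against vector. Beside them, 40.7% and 46.7% of all genes were called. In that fit scramble against vector also had 66 members called, beside 42.1% of all genes. The hairpins against scramble had 35 and 22 members called there, beside 33.2% and 31.5% of all genes. When 1 library was left out of the fit of all 12, fewer members and fewer of all genes were called against vector. The member median against vector then ran from 0.28 to 0.40 with p53 shRNA 1 and from 0.30 to 0.37 with p53 shRNA 2.

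The cytosolic ribosome has a large subunit that forms peptide bonds and a small subunit that reads the mRNA. RPL genes encode proteins of the large subunit and RPS genes those of the small one, and both are needed in matched amounts by growing cells. Many of their mRNAs begin with a C followed by a run of pyrimidines, the 5′ terminal oligopyrimidine (TOP) tract, through which mTOR signalling controls their translation. Free RPL5, RPL11 and RPL23 can bind MDM2, the ligase that marks p53 for destruction, which links ribosome assembly to p53.

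The study asked how mRNA levels differ when the mutant p53 is knocked out or knocked down. Its libraries formed 6 groups of 2: p53 KO (construct GFP sg-1, mutant p53 labelled no) and KO control (GFP V2, labelled yes), both without doxycycline, and p53 shRNA 1 and p53 shRNA 2 (both labelled no), scramble shRNA and vector (both labelled yes), all with doxycycline. All groups share the LMSU background and Ham's F-10 medium. The labels name 1 knockout construct, give no clone, and do not say which cultures the libraries came from. Each n of 2 therefore counts libraries, and p-values measure the spread between them, which may be technical.

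Library totals ran from 9738094 to 16823246 counts, and replicate libraries varied more without doxycycline (biological coefficient of variation 15.6%) than with it (3.08%). Among markers of the labelled gastric epithelium, EPCAM, CDH1 and KRT19 reached at most 0.17, 0.16 and 0.25 CPM (counts scaled to library size), while KRT8 stood at 63.9 to 208 CPM and KRT18 at 185 to 283 CPM. The 6 fibroblast markers summed to 2655 to 3445 CPM in the knockout arm and 14839 to 18558 CPM in the knockdown arm. The 4 immune markers summed to at most 0.37 CPM. The arms were cultured with different constructs and with or without doxycycline, so the arm, the construct and the drug cannot be told apart, and the arms were not tested against each other. In bulk RNA, fewer cells of a type and less RNA per cell cannot be told apart.

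To show the sequence feature most of the genes have in common, the first bases of 10 members are printed, 15 bases before and 15 from the annotated start, from RefSeq promoters on GRCh38.p14. Capitals mark the TOP tract, a C at the start followed by at least 4 more C or T, cut at the end of the window. The first 7 have one at the annotated start and the last 3 (RPS4X, RPL9 and RPS26) do not. A run of C and T that begins after the annotated start, as in RPL9 and RPS26, is not marked.
RPL39: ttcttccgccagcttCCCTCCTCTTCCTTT
RPS6: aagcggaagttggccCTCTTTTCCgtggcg
RPS3A: cgactcccacttccgCCCTTTTggctctct
RPS13: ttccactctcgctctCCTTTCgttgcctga
RPL34: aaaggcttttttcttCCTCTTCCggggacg
RPL13A: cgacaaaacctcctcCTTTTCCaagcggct
RPLP0: gcgcgggcgcgaggcCCTTCTCTCgccagg
RPS4X: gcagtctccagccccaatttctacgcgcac
RPL9: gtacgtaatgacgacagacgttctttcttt
RPS26: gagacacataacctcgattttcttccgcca
The windows lie at chrX:119791616-119791645 for RPL39 (minus strand), chr9:19380222-19380251 for RPS6 (minus), chr4:151099613-151099642 for RPS3A (plus), chr11:17077653-17077682 for RPS13 (minus) and chr4:108620561-108620590 for RPL34 (plus). They lie at chr19:49487593-49487622 for RPL13A (plus), chr12:120201097-120201126 for RPLP0 (minus), chrX:72277234-72277263 for RPS4X (minus), chr4:39458908-39458937 for RPL9 (minus) and chr12:56041903-56041932 for RPS26 (plus).

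Promoters of 62 of the 77 members were matched by symbol. A TOP tract began at the annotated start in 42 of the 62 (67.7%), against 4.04% of all 27305 promoters. Other motifs were searched on both strands of the whole window of 250 bases before to 50 after the start. CCGGAAG, the core of ETS factor sites, was in 33.9% of member promoters and 10.7% of all, and TCTCGCGA, an element of housekeeping promoters, in 17.7% and 1.19%. AAGATGGC, the core bound by YY1, was in 9.68% and 3.03%, CACGTG, the E-box that MYC binds, in 4.84% and 7.43%, and TATAAA, the TATA box, in 8.06% and 11.95%. These matches are descriptions of letters, not of binding.

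The promoter of RPS6, the small subunit protein that S6 kinase phosphorylates, held both of the motifs that were commonest among members. Its 250 bases before the start, chr9:19380237-19380486 on the minus strand of GRCh38.p14, are printed with CCGGAAG at position -104 and TCTCGCGA at -52, and again on the other strand at -50, in capitals. The pair at -52 and -50 overlap, because their joined letters read the same on both strands.
RPS6 upstream: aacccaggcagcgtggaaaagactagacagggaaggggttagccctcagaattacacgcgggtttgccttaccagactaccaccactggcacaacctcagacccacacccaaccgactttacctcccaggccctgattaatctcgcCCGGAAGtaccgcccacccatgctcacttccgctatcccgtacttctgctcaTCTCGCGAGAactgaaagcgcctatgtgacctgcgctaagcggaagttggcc

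Members made up between 4.09% and 6.74% of all counts. They took 4.22% and 4.85% in the p53 KO libraries, against 5.73% and 4.09% in the KO control libraries. They took 6.74% and 6.24% with p53 shRNA 1, 5.98% and 6.20% with p53 shRNA 2, 6.05% and 5.87% in scramble, and 5.11% and 4.96% in vector. The KO control holds the highest library of the knockout arm and the lowest of all 12, whereas in the knockdown arm both vector libraries lie below all 6 others.

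**Figure D1:**
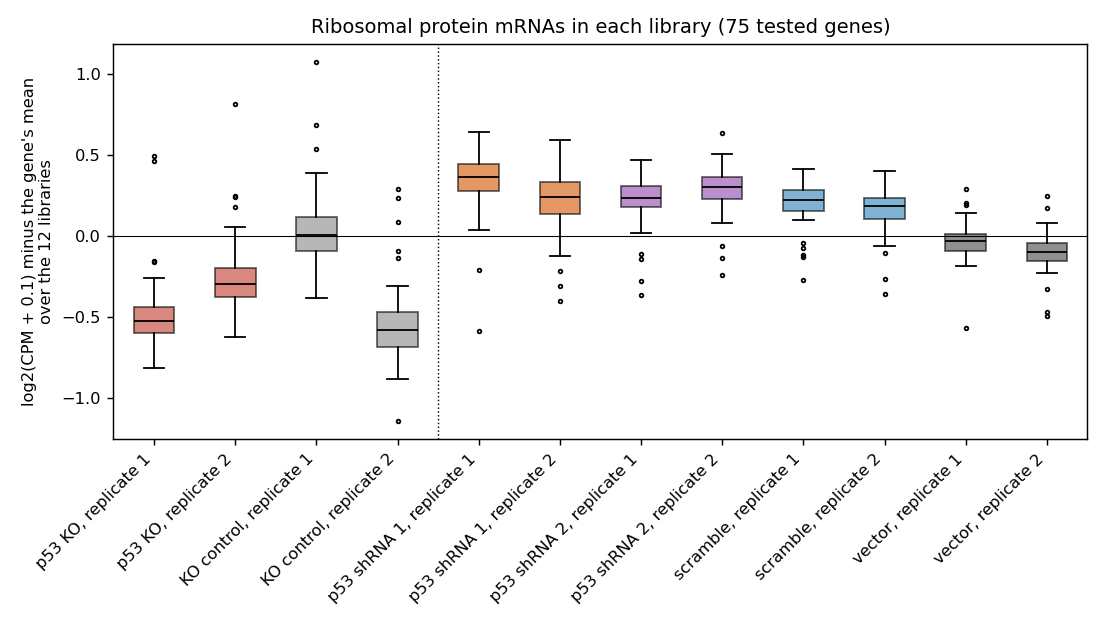
Each box is the spread of the 75 tested members in 1 library, as log2(CPM + 0.1) minus the gene's own mean over the 12 libraries (line, median; box, quartiles; whiskers, 1.5 times the box; dots, genes beyond). The KO control libraries lie apart from each other on either side of the p53 KO libraries, and both vector libraries lie below the other libraries of the knockdown arm.

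Levels per kilobase of coding sequence ranged widely between members. Over the 12 libraries the highest mean levels per kilobase were 5117 CPM for RPL8, 4463 for RPLP2 and 4260 for RPL37. RPLP2 and its partner RPLP1 (3334 CPM per kilobase) form with RPLP0 (2594) the stalk that recruits elongation factors. RPL22, a large subunit protein with a paralog, RPL22L1, stood at 382 and RPL13A at 314 CPM per kilobase.

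A few members were nearly absent from the counts. RPL21 had 0 counts in every library; 2 members failed the filter on low counts, and 75 were tested. RPL36A passed with only 11 to 25 counts per library, RPL17 with 23 to 101 and RPS10 with 67 to 113. The table also has 30 rows of ribosomal protein pseudogenes and 3 readthrough rows that join RPL17, RPL36A or RPS10 to a neighbour; the readthrough rows were at 0 everywhere. How reads shared with these copies were counted is not given in the sources used here, so members with many copies are uncertain.

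Over the 12 libraries the members moved together. The median Pearson correlation of log2 CPM over the 2775 pairs of members was 0.93, a description over libraries that share groups and arms. Among the few that departed, chosen after their values were seen, were RPS26, a protein at the mRNA exit channel, and RPSA, which is also the laminin receptor. RPS26 had 99.1 and 127 CPM in p53 KO and 116 and 88.1 CPM in KO control libraries. It had 62.3 and 58.2 CPM with p53 shRNA 1, 65.3 and 65.5 CPM with p53 shRNA 2, 66.3 and 59.9 CPM in scramble and 48.5 and 51.1 CPM in vector. It is the 1 tested member whose 4 knockout-arm libraries were all above the 8 others; 19 were all below and 55 overlapped, beside 27.2%, 25.5% and 47.3% of all genes tested.

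The first comparison set p53 KO against its control. No member was called (adjusted p below 0.05 in edgeR's quasi-likelihood test), and 0.015% of the 13365 genes tested were. The unadjusted p was below 0.05 in 0 members, and DESeq2 also called 0. The member median was -0.15 on the log2 scale, with 4 members above 0, beside a median of -0.01 over all genes. Both p53 KO libraries lay above both KO control libraries in 0 members and below them in 2, RPL36A and RPL39, beside 12% and 11.2% of all genes.

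RPL5 and RPL11, which bind MDM2 together with the 5S rRNA, show how the libraries lay. RPL5 had 974 and 1068 CPM in p53 KO libraries, against 1193 and 941 CPM in KO control libraries. RPL11 had 658 and 786 CPM in p53 KO libraries, against 916 and 615 CPM in KO control libraries. In both genes the p53 KO libraries fell inside the range of the control libraries. The log2 fold change was -0.06 (SE 0.11, edgeR adjusted p 0.86) for RPL5 and -0.09 (SE 0.15, edgeR adjusted p 0.88) for RPL11.

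The other MDM2 partner named above had the same arrangement. RPL23 had 333 and 394 CPM in p53 KO libraries, against 498 and 327 CPM in KO control libraries. RPL26, a large subunit protein that binds p53 mRNA, had 342 and 389 CPM in p53 KO libraries, against 493 and 313 CPM in KO control libraries. Among the 16 members that were always to be named, the log2 fold change ran from -0.22 (RPS27A, which is made as a fusion with ubiquitin) to -0.03 (RPL22), with a median of -0.15.

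The stalk genes gave -0.17 (RPLP0), -0.15 (RPLP1) and -0.14 (RPLP2). RPS14 and RPS19, whose loss causes anaemias with failed red cell production, gave -0.20 and -0.15. RPS3, at the mRNA entry site, gave -0.16, RPS6 -0.13 and RPSA -0.08. RPL3, near the peptidyl transferase centre, gave -0.11 and RPL10, which joins the large subunit late in assembly, -0.15. None of these differences exceeded the spread between libraries by the test.

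The KO control libraries themselves were compared with 1 library on each side, so no test applies. The first was above the second in 74 of 75 members, beside 54.7% of all genes tested. The difference exceeded 0.5 in 57 members, beside 13.0% of all genes. The members' quartiles were 0.50 and 0.70 around the median of 0.62, while the median of all genes was 0.06.

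By the same subtraction of replicate 2 from replicate 1, the member median was -0.24 in p53 KO, 0.11 with p53 shRNA 1, -0.06 with p53 shRNA 2, 0.06 in scramble and 0.05 in vector. In those 5 groups 0 or 1 of the 75 members differed by more than 0.5 in either direction. In the same order, 9.41%, 9.05%, 7.12%, 7.06% and 6.24% of all genes tested did. In the KO control 57 members and 27.3% of all genes did. The gap in the KO control is the widest of the 6 groups in these data. Both subunits had it, with a median of 0.60 over 45 large subunit members and 0.65 over 30 small subunit members.

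The widest gaps belonged to RPL17, RPL41, RPS21, RPS28 and RPL36. RPL17 had 7.03 CPM in the first and 3.49 CPM in the second KO control library, a difference of 0.98. RPL41, the shortest member, had 51.0 and 26.8 CPM, a difference of 0.92. RPS21 had 380 and 206 CPM (0.88), RPS28 196 and 108 CPM (0.86) and RPL36 308 and 170 CPM (0.86). The last 3 are small proteins with many counts, so their gaps do not rest on few reads.

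The narrowest gaps belonged to RPL36A, RPL39, RPS10, RPL9 and RPL15. RPL39, which lines the exit tunnel for the new peptide, had 8.90 CPM in the first and 8.68 CPM in the second KO control library, a difference of 0.04. RPL9 had 253 and 210 CPM (0.27) and RPL15 528 and 428 CPM (0.30). RPL36A was the exception to the direction, at 1.46 and 1.53 CPM (-0.06), and RPS10 stood at 6.61 and 6.04 CPM (0.13).

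The p53 KO libraries mostly lay between the control libraries. The first did so in 59 of 75 members and the second in 70, and both did in 57, beside 39.0%, 60.4% and 29.3% of all genes tested. Which control library is kept therefore sets the direction. Without the first KO control library the member median of the knockout comparison was 0.21 and 0 members were called, beside 0.125% of all genes; without the second it was -0.42 and 66 members were called, beside 30.3% of all genes. In both of these fits the lone control library is assumed to vary like the other groups.

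The gap moved with coding length, which is short in most members (median 456 bases, against 1425 over all genes tested). Among other genes the median difference between the first and second KO control library was 0.34 under 500 bases, 0.21 from 500, 0.07 from 1000, -0.08 from 2000 and -0.28 from 3000 bases upwards. Members stood at 0.66, 0.57 and 0.43 in the first 3 classes, above other genes in each. In p53 KO against KO control the order was the other way and smaller, at -0.06 in the shortest and 0.05 in the longest class of other genes. Between the p53 KO libraries, first minus second, those classes had -0.19 and 0.17, and members had -0.23, -0.26 and -0.20. Between replicate libraries of the knockdown arm the same 2 classes of other genes lay from -0.04 to 0.05. The part of length in the members' gap was not tested.

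**Figure D2:**
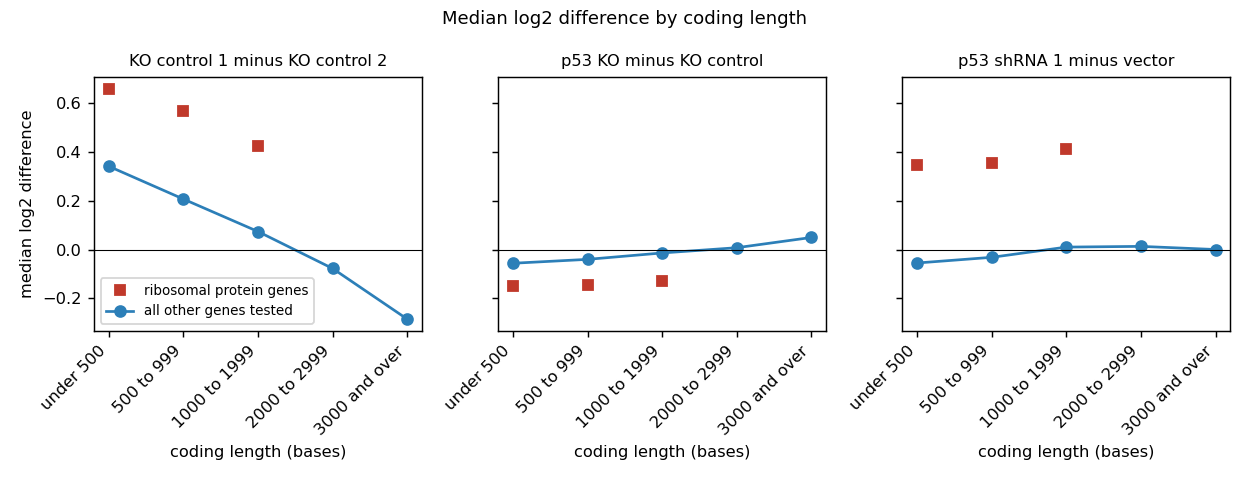
Points are median log2 differences by class of coding length, for ribosomal protein genes (squares, 45, 28 and 2 genes in the first 3 classes) and for all other genes tested with a coding length (circles). The other genes fall from 0.34 to -0.28 along the length classes between the KO control libraries and stay near 0 in p53 shRNA 1 against vector, where members stand at 0.35, 0.35 and 0.41.

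Other lists were also higher in the first KO control library. The median gap was 0.53 over 73 oxidative phosphorylation genes (69 above 0), 0.41 over 77 mitochondrial ribosomal protein genes (71 above 0) and 0.51 over 26 replication-dependent histone genes (24 above 0). It was 0.33 over 24 other TOP mRNAs, mainly of translation factors, and 0.14 over 57 ribosome assembly factors. The 17 mTOR pathway genes had a median of -0.13.

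The second set of comparisons asked what each hairpin did. Against scramble, p53 shRNA 1 gave 0 called members, beside 9.41% of all genes tested; 4 members had an unadjusted p below 0.05 and DESeq2 called 0. The member median was 0.10. Both libraries lay above both scramble libraries in 38 members and below in 2, beside 31% and 31% of all genes.

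Against scramble, p53 shRNA 2 gave 1 called member, beside 7.74% of all genes tested, and a median of 0.08. Its libraries lay above scramble in 44 members and below in 5, beside 31.1% and 31.4% of all genes. The called member was RPL13A, which silences inflammatory mRNAs once released from the ribosome. RPL13A had 245 and 248.9 CPM with p53 shRNA 2, against 178 and 179 CPM in scramble, a log2 fold change of 0.47 (SE 0.13, edgeR adjusted p 0.042). With p53 shRNA 1 it had 235 and 240 CPM, and its fold change against scramble was 0.41 (SE 0.13, edgeR adjusted p 0.064). Both hairpins thus lay above scramble in all 4 libraries, but the first did not pass the test. The call for p53 shRNA 2 was lost when any 1 of the 4 compared libraries was left out. Calls over all genes also became fewer in those fits, and the member median ran from 0.049 to 0.11.

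Against vector the members stood higher than against scramble. With p53 shRNA 1, 14 of 75 members were called, all up (18.7%), beside 13% of all genes in either direction and 5.78% up. The member median was 0.35 and that of all genes 0.00. Both p53 shRNA 1 libraries lay above both vector libraries in 65 members and below in 0, beside 34% and 34.1% of all genes.

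With p53 shRNA 2, 12 members were called against vector, all up (16%), beside 21% of all genes in either direction and 9.21% up. The member median was 0.32. Its libraries lay above vector in 70 members and below in 1, beside 35.8% and 36.1% of all genes. The 2 comparisons use the same vector libraries. RPL5, RPL9, RPL23, RPL39, RPS3A, RPS4X, RPS6 and RPS13 were called in both.

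RPL39 had the largest fold change of the called members with p53 shRNA 1. It is one of the lowest members, with a mean of 79.3 CPM per kilobase over the 12 libraries, rank 72 among the 77 members. It had 18.2 and 17.6 CPM with p53 shRNA 1, 14.9 and 13.2 CPM with p53 shRNA 2, 14.6 and 13.6 CPM in scramble, and 10.7 and 10.3 CPM in vector. All libraries of the hairpins and of scramble lay above vector. The log2 fold change against vector was 0.77 with p53 shRNA 1 (SE 0.12, edgeR adjusted p 0.0017) and 0.42 with p53 shRNA 2 (SE 0.12, edgeR adjusted p 0.027).

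RPL5 and RPL23, of the MDM2-binding members, were called with both hairpins. RPL5 had 1899 and 1742 CPM with p53 shRNA 1 and 1644 and 1669 CPM with p53 shRNA 2, against 1281 and 1269 CPM in vector. RPL23 had 694 and 622 CPM with p53 shRNA 1 and 611 and 630 CPM with p53 shRNA 2, against 448 and 437 CPM in vector. For RPL5 the log2 fold change was 0.51 with p53 shRNA 1 (edgeR adjusted p 0.0089) and 0.38 with p53 shRNA 2 (edgeR adjusted p 0.025); for RPL23 it was 0.57 (edgeR adjusted p 0.033) and 0.49 (edgeR adjusted p 0.045). RPL11 had 0.26 and 0.20 and was called with neither hairpin, at edgeR adjusted p 0.30 and 0.40.

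Among small subunit members, RPS6 had 1896 and 1745 CPM with p53 shRNA 1 and 1720 and 1815 CPM with p53 shRNA 2, against 1290 and 1236 CPM in vector. Its fold change was 0.53 (edgeR adjusted p 0.038) with p53 shRNA 1 and 0.49 (edgeR adjusted p 0.037) with p53 shRNA 2. Other calls with large fold changes were RPS12 (0.61) and RPL6 (0.59) with p53 shRNA 1, and RPL34 (0.55), RPS27 (0.55) and RPL28 (0.50) with p53 shRNA 2. RPS12 had 1229 and 1143 CPM with p53 shRNA 1, against 784 and 773 CPM in vector. RPS27, a zinc-binding protein of the small subunit, had 505 and 524 CPM with p53 shRNA 2, against 361 and 342 CPM in vector. In each the hairpin libraries lay above both vector libraries.

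Other members that were always to be named lay above vector without a call. The stalk genes had log2 fold changes of 0.32 to 0.38 with p53 shRNA 1 and 0.25 to 0.37 with p53 shRNA 2. RPLP0 had 3065 and 3048 CPM with p53 shRNA 1 and 2795 and 2872 CPM with p53 shRNA 2, against 2378 and 2384 CPM in vector. RPL26, RPS3, RPS14 and RPS19 had 0.41, 0.37, 0.42 and 0.30 with p53 shRNA 1, and RPL3 and RPL10 had 0.34 and 0.33. With p53 shRNA 2 the 4 had 0.48, 0.32, 0.38 and 0.30, and RPL3 and RPL10 had 0.17 and 0.30.

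RPSA was the exception among them. It had 657 and 666 CPM with p53 shRNA 1 and 593 and 615 CPM with p53 shRNA 2, against 660 and 650 CPM in vector. The log2 fold change was 0.01 with p53 shRNA 1 (edgeR adjusted p 0.96) and -0.12 with p53 shRNA 2 (edgeR adjusted p 0.59). It was the 1 member whose p53 shRNA 2 libraries both lay below both vector libraries.

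**Figure D3:**
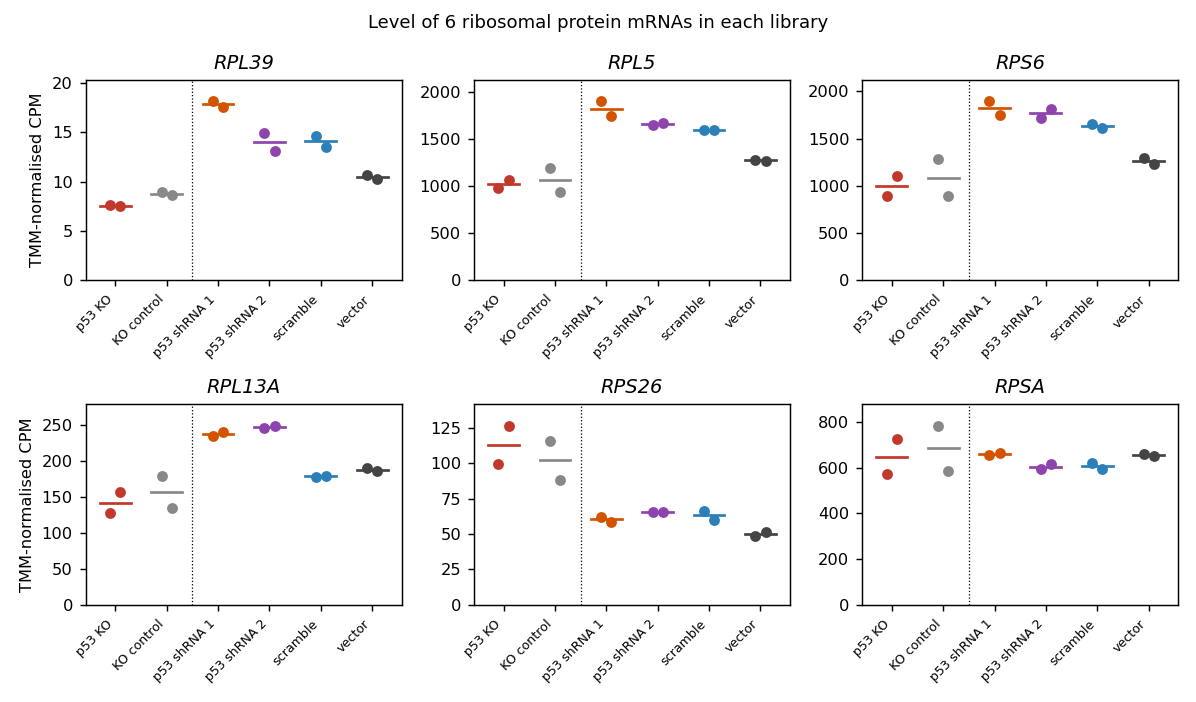
Points are TMM-normalised CPM in single libraries and lines are group means, on axes that start at 0. RPL39, RPL5 and RPS6 stand lowest in vector within the knockdown arm, RPL13A stands higher with both hairpins than in scramble and vector, RPS26 is higher in the knockout arm, and RPSA lies between 593 and 666 CPM throughout the knockdown arm.

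Scramble and vector, the 2 controls of the knockdown arm, also differed. Scramble against vector gave a member median of 0.27, and the scramble libraries lay above vector in 67 members and below in 2, beside 34.5% and 34.7% of all genes tested. By the test 1 member was called, RPL39 (0.43, edgeR adjusted p 0.031), beside 15.3% of all genes. DESeq2 called 0 members here, beside 12.8% of all genes. The RPL39 call was also lost when any 1 of the 4 libraries was left out. Calls over all genes became fewer in those fits too, and the member median ran from 0.23 to 0.30. With only the 4 compared libraries fitted, 67 members were called, beside 44.4% of all genes. RPL5 had 1594 and 1592 CPM in scramble, against 1281 and 1269 CPM in vector, a log2 fold change of 0.32 (edgeR adjusted p 0.062). RPL13A went the other way, with 178 and 179 CPM in scramble, against 189 and 186 CPM in vector (-0.07, edgeR adjusted p 0.75). The hairpin comparisons against vector and scramble against vector share the vector libraries, so their medians are not independent.

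**Figure D4:**
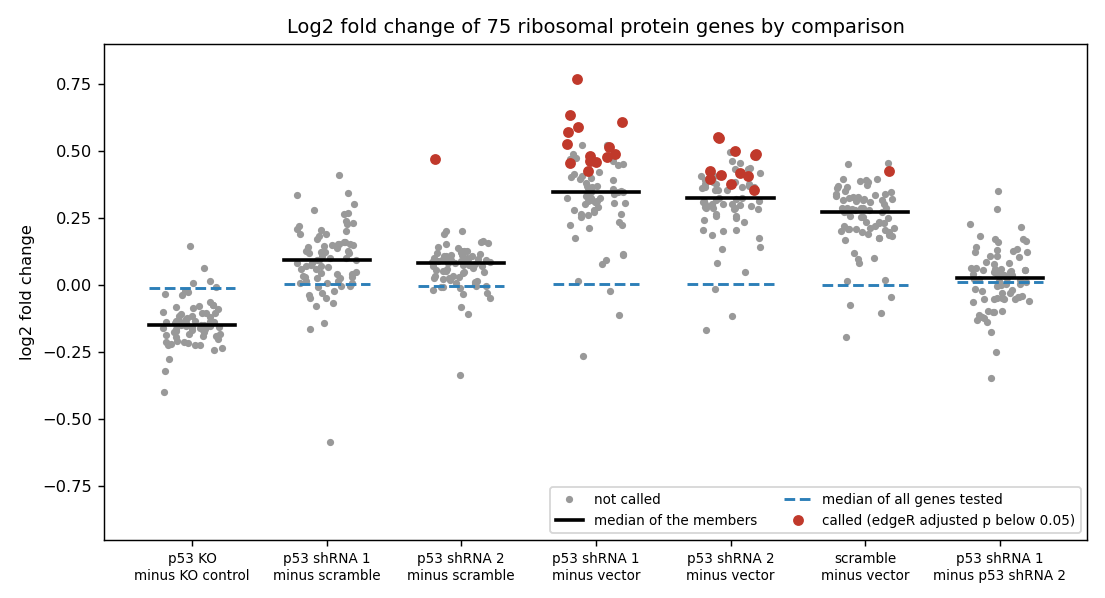
Each point is the log2 fold change of 1 of the 75 tested members, red where called, with the median of members (black) and of all genes tested (dashed). The member medians are -0.15 for p53 KO against KO control, 0.10 and 0.08 for the hairpins against scramble, 0.35 and 0.32 against vector, 0.27 for scramble against vector and 0.03 between the hairpins.

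The number of members called differed between fits. With the 8 knockdown-arm libraries fitted alone, 66 members were called with p53 shRNA 1 against vector, 70 with p53 shRNA 2 and 66 in scramble, beside 40.7%, 46.7% and 42.1% of all genes. In that fit 35 and 22 members were called for p53 shRNA 1 and p53 shRNA 2 against scramble, beside 33.2% and 31.5% of all genes, and 20 for p53 shRNA 1 against p53 shRNA 2, beside 38.8%. The medians were 0.34, 0.33 and 0.27 against vector and 0.10 and 0.09 against scramble. When 1 library was left out of the joint fit, 1 or 2 members were called with p53 shRNA 1 against vector, beside 3.64% to 4.69% of all genes, and 0 with p53 shRNA 2, beside 10.3% to 10.6%.

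Between the hairpins, p53 shRNA 1 against p53 shRNA 2, 0 members were called, beside 14.3% of all genes tested; 2 had an unadjusted p below 0.05 and DESeq2 called 0. The member median was 0.03. The knockout effect minus the mean hairpin effect against scramble was tested in the same fit. It gave 0 called members, beside 1.1% of all genes, with a median of -0.24, 3 members with an unadjusted p below 0.05 and 0 called by DESeq2. Without the first KO control library that median was 0.11 with 0 members called, beside 5.18% of all genes; without the second it was -0.50 with 64 called, beside 24.5% of all genes.

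Members with and without a TOP tract at the annotated start had similar medians. A tract that begins some bases from the annotated start counts as absent here, so the split cannot show what the tract does. With p53 shRNA 1 against vector the 41 tested members with a TOP tract had a median of 0.37 and the 20 without one 0.32. With p53 shRNA 2 against vector the medians were 0.37 and 0.30. Between the KO control libraries they were 0.65 and 0.61. RPL9 and RPS4X, printed above without a tract at the annotated start, were called with both hairpins against vector.

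Subunits were likewise close. The 45 large subunit members had a median of 0.36 with p53 shRNA 1 against vector, with 9 called, all up. The 30 small subunit members had 0.31, with 5 called, all up. Beside them, 5.78% of all genes tested rose and 13% were called in either direction. With p53 shRNA 2 the medians were 0.32 and 0.34, with 7 and 5 called, all up. Of all genes, 9.21% rose and 21% were called in either direction. By coding length, members with p53 shRNA 1 against vector had medians of 0.35 under 500 bases, 0.35 from 500 and 0.41 from 1000 bases, and with p53 shRNA 2 of 0.37, 0.31 and 0.22. Among other genes the medians over the 5 length classes lay between -0.05 and 0.01 with p53 shRNA 1, and with p53 shRNA 2 went from -0.04 in the shortest to 0.05 in the longest class. The part of length in the members' differences was not tested.

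Genes that act with the ribosome were described from lists beside the members. Of all 13365 genes tested, 772 (5.78%) rose and 970 fell with p53 shRNA 1 against vector. With p53 shRNA 2 against vector 1231 (9.21%) rose and 1570 fell, and in scramble against vector 949 rose and 1090 fell. Of 24 other TOP mRNAs, 7 rose with p53 shRNA 1, 6 with p53 shRNA 2 and 5 in scramble against vector, with medians of 0.28, 0.24 and 0.19 and 0 that fell. TPT1, a translationally controlled growth protein, had 2371 and 2223 CPM with p53 shRNA 1 and 2481 and 2502 CPM with p53 shRNA 2, against 1627 and 1605 CPM in vector. EIF3A, the core of initiation factor eIF3, had 802 and 799 CPM with p53 shRNA 1 and 962 and 970 CPM with p53 shRNA 2, against 592 and 592 CPM in vector. TPT1 rose by 0.51 and 0.62 on the log2 scale (edgeR adjusted p 0.0095 and 0.0015), and EIF3A by 0.43 and 0.71 (edgeR adjusted p 0.0030 and 5.0e-05). Scramble against vector gave 0.53 for TPT1 (edgeR adjusted p 0.0059) and 0.33 for EIF3A (edgeR adjusted p 0.010). Against scramble TPT1 had -0.02 and 0.10 with p53 shRNA 1 and p53 shRNA 2 (edgeR adjusted p 0.95 and 0.66), and EIF3A had 0.10 and 0.38 (edgeR adjusted p 0.44 and 0.0097).

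Genes for building ribosomes and for the mitochondrial ribosome had medians nearer 0. Of 57 assembly factors, 5 rose and 0 fell with p53 shRNA 1 against vector, 4 rose and 3 fell with p53 shRNA 2, and the medians were 0.04 and 0.05. The 13 RNA polymerase I genes had medians of 0.04 and 0.04, with 0 up and 1 down each time. The 77 mitochondrial ribosomal protein genes had -0.10 and -0.03, with 0 and 2 up and 3 and 1 down, and the 73 oxidative phosphorylation genes -0.05 and -0.04, with 1 up and 1 down for p53 shRNA 1 and 0 called for p53 shRNA 2.

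The remaining lists were mixed against vector. Of 13 snoRNA host genes, which are spliced to release guides for rRNA modification, 0 rose and 1 fell with p53 shRNA 1, and 3 rose and 1 fell with p53 shRNA 2. SNHG5 (0.62), SNHG6 (0.53) and GAS5 (0.50) rose and SNHG16 (-0.66) fell with p53 shRNA 2. Of 8 MYC network genes 0 were called with p53 shRNA 1 and 1 fell with p53 shRNA 2: MYC, which drives ribosome production, had 100 and 102 CPM with p53 shRNA 2, against 134 and 136 CPM in vector (-0.42, edgeR adjusted p 0.0083). MYC also fell in scramble against vector (-0.35, edgeR adjusted p 0.027); against scramble it had -0.07 with p53 shRNA 2 (edgeR adjusted p 0.74) and rose by 0.42 with p53 shRNA 1 (edgeR adjusted p 0.019). Of 17 mTOR pathway genes 1 rose with each hairpin and 0 and 2 fell. Of 26 histone genes 5 and 6 rose and 0 fell. Of 6 tested paralogs outside the symbol rule 0 were called with p53 shRNA 1 and 1 fell with p53 shRNA 2, and of 14 tested pseudogene rows 0 and 1 rose and 2 and 1 fell. Of the 6 fibroblast markers, 4 rose with each hairpin and 4 in scramble against vector, and 1 fell with p53 shRNA 2; DCN had 286 and 281 CPM with p53 shRNA 1, against 66.3 and 62.5 CPM in vector. The part of these genes in the members' differences was not tested.

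Against scramble, 2 of the 57 assembly factors rose and 2 fell with each hairpin. Of all 13365 genes tested, 588 rose and 670 fell with p53 shRNA 1, and 479 rose and 555 fell with p53 shRNA 2. NOLC1, a nucleolar phosphoprotein, fell with both (-0.37 and -0.33, edgeR adjusted p 0.012 and 0.022), and NCL and NIP7 rose with both. NCL, the nucleolar protein nucleolin, had 832 and 833 CPM with p53 shRNA 1 and 753 and 766 CPM with p53 shRNA 2, against 510 and 515 CPM in scramble. NIP7, which acts in large subunit assembly, had 42.0 and 37.2 CPM with p53 shRNA 1 and 35.5 and 36.4 CPM with p53 shRNA 2, against 20.9 and 20.9 CPM in scramble. NCL rose by 0.70 and 0.57 (edgeR adjusted p 4.7e-04 and 0.0017) and NIP7 by 0.92 and 0.78 (edgeR adjusted p 4.2e-04 and 0.0011). Scramble against vector was lower in both, at -0.56 for NCL and -0.60 for NIP7 (edgeR adjusted p 7.8e-04 and 0.0024), so against vector neither was called with either hairpin.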

How the data were processed

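RNA-seq of 12 libraries was analysed from the gene-level table of read counts that the authors deposited, 1 column per library and not normalised. Per the submitters' processing notes, bcl2fastq, STAR 2.5 and the hg19 build were used; how reads were assigned to genes, and with which strand setting and annotation, is not given in the sources used here. Libraries were grouped by their titles. The analysis used edgeR 4.0.16 in R 4.3.3: filterByExpr (minimum count 10) left 13365 genes, libraries were scaled with TMM, and 6 groups were fitted together (6 residual degrees of freedom). Two-sided quasi-likelihood tests were adjusted by Benjamini-Hochberg over all genes tested, and calls were made at an adjusted p below 0.05. Levels are TMM-normalised CPM, and log2 differences between single libraries used a prior count of 2. Low members rest on few counts, and counting error alone then widens their spread. The procedure was tested on data simulated with the same spread in every library, which does not cover the unequal spread of the arms.

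Members and lists were chosen with earlier results of these data known. Named were 16 members always, up to 5 called members in each direction per comparison, the 5 largest and 5 smallest differences between the KO control libraries, and up to 4 members of each other list; any other name was chosen after its values were seen. Coding lengths came from GENCODE 29 and promoters from RefSeq (GRCh38.p14), matched by symbol; no hg19 coordinates were used. Alternatives were DESeq2 1.42.0, RLE size factors, TMM without the members, no filter, only the compared libraries, a replicate block, thinned counts and each library left out, and, after seeing the data, the knockdown arm alone and a crossed block. Figures were drawn with matplotlib 3.10.9. The level of the targeted gene, and values of some members that the naming rule takes, are not reported here.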

Additional observations from a re-analysis of the deposited data

Results flagged for a closer look

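The knockout effect and the mean hairpin effect against scramble differed in 0 of 75 ribosomal protein genes and in 2 of 57 ribosome assembly factors, beside 1.1% of all genes, by the test of the difference itself. The difference, knockout minus hairpins, was -0.71 on the log2 scale for NCL (SE 0.11, edgeR adjusted p 0.012), where p53 KO against KO control gave -0.07 (edgeR adjusted p 0.81). It was -0.85 for NIP7 (SE 0.13, edgeR adjusted p 0.012), where p53 KO against KO control gave -0.0013 (edgeR adjusted p 0.999). Both differences rest on scramble, which itself differed from vector by -0.56 for NCL and -0.60 for NIP7. Against vector, p53 shRNA 1 and p53 shRNA 2 gave 0.14 and 0.01 for NCL and 0.33 and 0.19 for NIP7, and neither gene was called.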

How the results depend on the processing

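Counts of called members differed between settings, while the medians kept their sign unless a library was left out. In the order p53 shRNA 1 and p53 shRNA 2 against scramble, p53 shRNA 1, p53 shRNA 2 and scramble against vector, and p53 shRNA 1 against p53 shRNA 2, 29, 23, 66, 70, 67 and 20 members were called with only the compared libraries, beside 31.0%, 32.3%, 41.9%, 49.7%, 44.4% and 39.8% of all genes, and 35, 22, 66, 70, 66 and 20 with the knockdown-arm libraries only. With no filter, 4 were called for p53 shRNA 1 against scramble, 54, 53 and 29 against vector, 1 between hairpins and 1 for the knockout minus the hairpin effect, beside 8.5%, 12.4%, 17.3%, 13.3%, 12.3% and 2.61% of all genes. DESeq2 called 0 in scramble against vector, beside 12.8% of all genes. The cause was not tested.

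With each library left out, calls ranged from 0 to 66 for p53 KO against KO control, 1 to 2 for p53 shRNA 1 against vector, 0 to 64 for the knockout minus the hairpin effect, and were 0 in the other 5 comparisons. For both comparisons with the knockout, the highest count came from the fit without the second KO control library. In that fit the share of all genes called was also at its highest, so the rise was not confined to members. The medians ranged from -0.42 to 0.21 for p53 KO against KO control and from -0.50 to 0.11 for the knockout minus the hairpin effect. They ranged from 0.034 to 0.16 and 0.049 to 0.11 for p53 shRNA 1 and p53 shRNA 2 against scramble, from 0.28 to 0.40, 0.30 to 0.37 and 0.23 to 0.30 for p53 shRNA 1, p53 shRNA 2 and scramble against vector, and from -0.041 to 0.10 between hairpins.

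Same-numbered libraries did not pair: the correlation of their deviations was above 0.1 in 2 of 15 pairs of groups and -0.47 in the knockout arm. With the replicate block 0 members were called for p53 shRNA 2 against scramble and 5 (6.67%) against vector. Beside them, 5.56% and 18.3% of all genes were called. A crossed block in the knockout arm called 0 members, beside 0.564% of all genes. The gap between the KO control libraries was 0.62 with counts thinned to the lowest total. Depth limits RPL17, RPL36A and RPS10.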
